A study of Homo sapiens with 9 samples.

Results

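A set of 10 genes of the Wnt signalling surface was followed in SaOS2 cells, an osteoblast-like human line from an osteosarcoma: 6 Frizzled receptors (FZD1, FZD2, FZD4, FZD6, FZD7 and FZD8), 3 Wnt ligands (WNT5A, WNT5B and WNT10B) and the co-receptor ROR2. Every probe whose annotated symbol is 1 of these names was taken, which gave 13 probes for 10 genes of 20046 gene symbols on the array. RNA was measured on 9 single-colour bead arrays, 3 per group. Recovery cells had spent 3 days in doxycycline at 1 µg/ml and then 3 days without it. Doxycycline cells were harvested after the same 3 days in the drug, and control cells were untreated. Cells of all groups carried a construct that makes an APC antisense RNA when doxycycline is given, and were grown under G418 and hygromycin selection. No cells without the construct were analysed here, so the drug, the antisense RNA and, for recovery, the longer time in culture cannot be told apart. The labels do not say whether replicates were separate cultures, so p-values measure only the spread between these arrays.

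Wnt proteins are secreted, lipid-modified ligands that bind the extracellular cysteine-rich domain of Frizzled, a family of receptors that pass through the membrane several times. With the co-receptors LRP5 or LRP6 the bound receptor blocks the complex, built on axin and APC, that marks beta-catenin for destruction. With ROR2 or other co-receptors it acts through cell polarity, small GTPases and calcium in place of beta-catenin. In bone, Wnt signals through beta-catenin promote osteoblast formation, and WNT5A with ROR2 is known for its part in skeletal development.

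Of the 10 genes, 2 rose in recovery cells against untreated cells. ROR2 was 3.47-fold higher and FZD4 was 2.28-fold higher, in a comparison that called 19.2% of the 12245 genes tested. Against doxycycline cells, ROR2 again rose while FZD2, FZD7 and WNT10B fell, where 18.4% of all genes were called. The falls of FZD7 and WNT10B each passed in only 1 of 9 fits with an array left out. The fall of FZD2 passed in 6 of these fits and the rise of ROR2 in all 9. None of the 10 genes passed the test between doxycycline and control cells, which called 2.07% of all genes. The APC probe was detected on 3 recovery, 3 doxycycline and 1 of the control arrays and did not pass in any comparison, with log2 differences of 0.12, -0.01 and 0.13 for recovery against control, recovery against doxycycline and doxycycline against control. The deposited labels do not say whether this probe can also detect the antisense RNA.

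All 10 genes were expressed by the detection p-value deposited with each signal, by Illumina's convention the share of negative control beads at least as bright. One probe of every gene stayed under 0.05 on 9 of 9 arrays. For FZD1, FZD2, FZD6, FZD7 and WNT10B this p was 0 on every array, and for FZD4, WNT5A and ROR2 it was at most 0.0013. FZD8 and WNT5B lay nearest the threshold, with highest values of 0.013 and 0.031. A second WNT5B probe (ILMN_1661788) was detected on 0 of 9 arrays, with detection p from 0.871 to 0.988 and deposited signals below 0. FZD1, FZD7 and WNT5B had 2 probes each, and the brighter probe was used. Since probes differ in how brightly they bind, no gene's level is set against another's.

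The arrays differed in brightness and spread. The deposited signals were not normalised, and their 75th percentile was 237 on control replicate 1 and from 109 to 187 on the others. The number of probes detected on an array ranged from 20141 to 21317, of 47322. On the first principal component of the normalised levels the groups separated, recovery from 28.2 to 35.6, doxycycline from -10.6 to -7.24 and control from -22.7 to -22.2. On the second component, doxycycline replicate 2 lay far from the rest, at -47.8 against 5.99 and -10.4 in the other doxycycline arrays. The median SD of a gene was 0.12 in recovery, 0.22 in doxycycline and 0.12 in control cells on the log2 scale.

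ROR2 is a receptor tyrosine kinase-like protein with a Frizzled-type ligand-binding domain, best known as a receptor for WNT5A. Its deposited signal (probe ILMN_1694426) was 425, 399 and 247 on the recovery arrays, 111, 226 and 209 on the doxycycline arrays and 165, 67.9 and 106 on the control arrays. After normalisation the log2 levels were 8.71, 8.72 and 8.50 in recovery cells, 7.08, 7.98 and 7.55 in doxycycline cells and 6.96, 6.57 and 7.02 in control cells. The arrays of the 3 groups did not overlap, with recovery highest and control lowest. ROR2 rose by 1.79 ± 0.21 (SE, log2) in recovery against control cells, with a 95% interval from 1.34 to 2.25 and an adjusted p of 0.00011 (here and throughout, limma's moderated test with Benjamini-Hochberg adjustment over 12245 genes), and ranked 135th of 12245 genes by size of difference. Against doxycycline cells it rose by 1.11 ± 0.21, or 2.16-fold (adjusted p = 0.0039). Doxycycline cells lay 0.69 ± 0.21 above control cells, which did not pass (adjusted p = 0.10, interval 0.23 to 1.14). Leaving out doxycycline replicate 2 gave differences of 1.80, 1.34 and 0.46 in the same order and did not change the calls. Without doxycycline replicate 1, doxycycline lay 0.91 above control cells and passed (adjusted p = 0.0098).

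FZD4 is the receptor for norrin as well as for Wnts, known for its part in retinal blood vessel growth. Its deposited signal (ILMN_1743367) was 283, 318 and 175 on the recovery arrays, 95.9, 252 and 190.2 on the doxycycline arrays and 172, 92.9 and 111 on the control arrays. The normalised log2 levels were 8.16, 8.42 and 8.05 in recovery cells, 6.90, 8.12 and 7.43 in doxycycline cells and 7.00, 6.97 and 7.08 in control cells. All recovery arrays lay above all control arrays, while the doxycycline arrays spread over both. FZD4 rose by 1.19 ± 0.24 in recovery against control cells (adjusted p = 0.0051, interval 0.66 to 1.72) and ranked 316th by size. The difference from doxycycline cells was 0.73 ± 0.24 (adjusted p = 0.057), and that of doxycycline from control cells was 0.46 ± 0.24 (adjusted p = 0.26). These values depended on which doxycycline array entered. Without doxycycline replicate 2, recovery lay 1.05 above doxycycline cells (adjusted p = 0.0012), and doxycycline lay 0.14 above control cells (adjusted p = 0.69). Without doxycycline replicate 1, the same differences were 0.43 (adjusted p = 0.11) and 0.75 (adjusted p = 0.021).

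**Figure D1:**
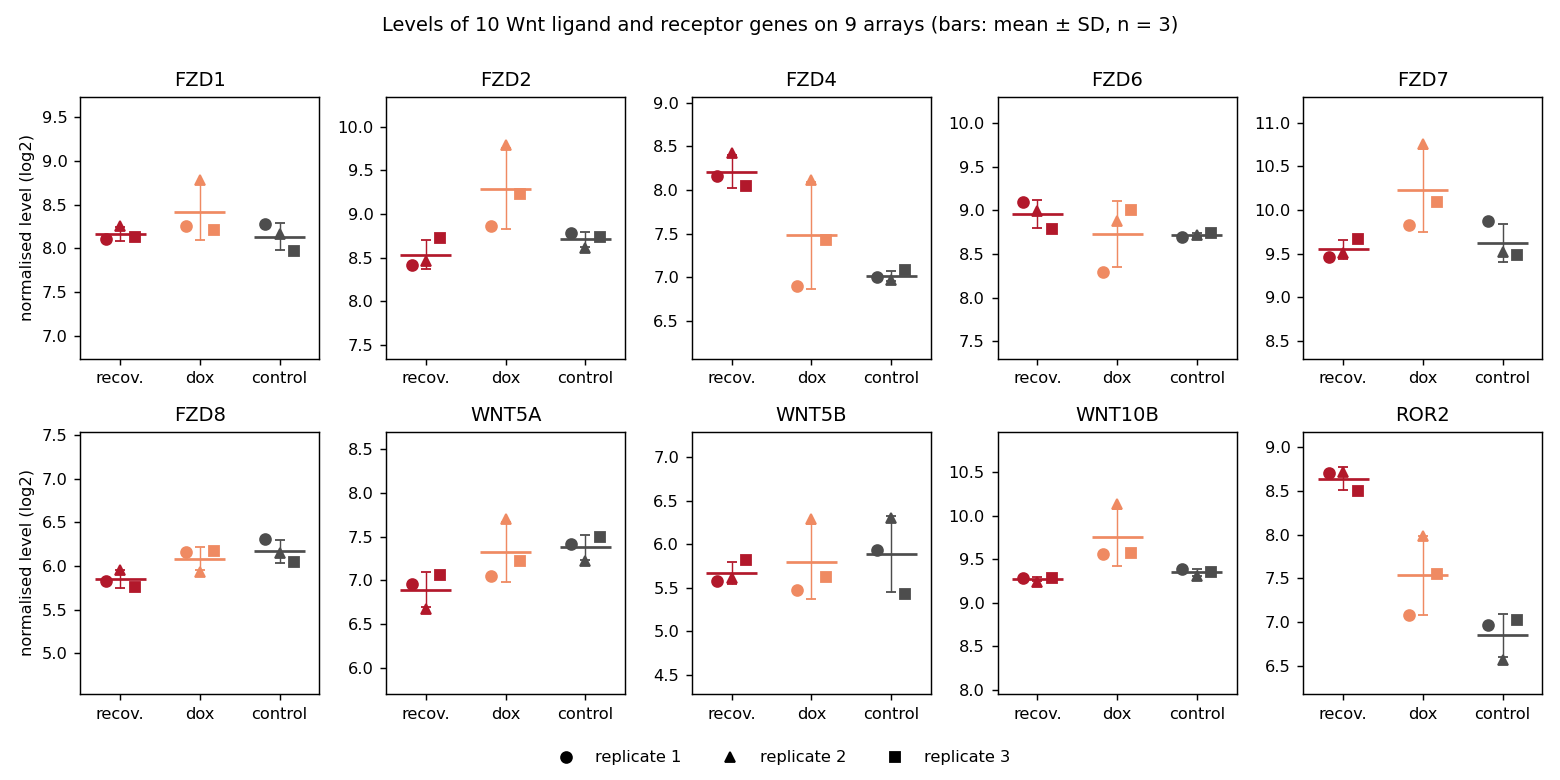
Normalised log2 level (vertical axis, 3 log2 units in every panel) of the 10 genes on each of 9 arrays, for recovery, doxycycline (dox) and control cells; symbols mark the replicate, horizontal bars the mean and vertical bars the SD (n = 3). ROR2 and FZD4 are higher on the recovery arrays than on any control array, and doxycycline replicate 2 is the highest doxycycline array for FZD1, FZD2, FZD4, FZD7, ROR2 and the 3 ligands.

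The promoters of these 2 receptor genes are shown because both genes rose in recovery. The letters run from 250 bases before to 50 bases after the RefSeq gene start, on the gene's strand, in build GRCh38.p14, with ROR2 at chr9:91950179-91950478 and FZD4 at chr11:86955346-86955645, both on the minus strand. Capitals mark matches to the GC box GGGCGG on either strand and to CTTTGT, a form of the core bound by TCF and LEF, the DNA-binding partners of beta-catenin.
ROR2: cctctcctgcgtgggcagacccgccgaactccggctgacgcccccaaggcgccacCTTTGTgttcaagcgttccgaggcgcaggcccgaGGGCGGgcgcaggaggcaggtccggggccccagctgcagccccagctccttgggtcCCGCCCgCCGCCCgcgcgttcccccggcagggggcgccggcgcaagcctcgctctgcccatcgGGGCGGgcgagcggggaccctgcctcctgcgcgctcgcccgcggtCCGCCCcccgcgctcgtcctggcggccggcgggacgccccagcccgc
FZD4: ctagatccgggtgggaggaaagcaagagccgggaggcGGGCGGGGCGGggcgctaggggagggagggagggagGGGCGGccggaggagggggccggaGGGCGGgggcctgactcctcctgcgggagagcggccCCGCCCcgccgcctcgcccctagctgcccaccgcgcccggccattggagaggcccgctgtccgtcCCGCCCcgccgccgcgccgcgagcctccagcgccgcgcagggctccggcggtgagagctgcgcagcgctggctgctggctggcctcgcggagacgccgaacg
Both windows are 79.7% G and C. The ROR2 window holds 5 GC boxes, and its CTTTGT begins at position -195 from the gene start. The FZD4 window holds 6 GC boxes, of which the leftmost pair overlap in 1 base, and no CTTTGT. Of 35116 promoters of this length in the RefSeq table, 45% hold a GC box and 16.1% hold CTTTGT on either strand. CTTTGA, the other TCF and LEF core searched, is in 12.9% of promoters and in none of the 8 listed for 6 of the 10 genes. The same 8 windows hold no interferon response element (in 3.57% of all promoters) and no TTCNNNGAA (7.66%), the palindrome bound by STAT proteins. FZD1 holds 1 CTTTGT, at position -224. The TATA box TATAAA, in 11.5% of all promoters, is in the FZD8 window and in 1 of the 2 windows of WNT5B. Promoters of FZD2, FZD6, FZD7 and WNT10B were not among those searched. Those of FZD1, FZD8, WNT5A and WNT5B were searched but are not printed.

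FZD1, FZD2 and FZD7 form a closely related branch of the family. FZD2 (ILMN_1653711), which can bind WNT5A, had normalised log2 levels of 8.42, 8.46 and 8.72 in recovery cells, 8.86, 9.79 and 9.23 in doxycycline cells and 8.78, 8.61 and 8.74 in control cells. The doxycycline arrays lay above all arrays of the other groups. FZD2 fell by 0.76 ± 0.20 on the log2 scale in recovery against doxycycline cells, a factor of 1.69 (adjusted p = 0.023). Its differences of -0.17 ± 0.20 in recovery against control and 0.58 ± 0.20 in doxycycline against control did not pass (adjusted p = 0.59 and 0.13). Leaving out doxycycline replicate 2, the fall in recovery was 0.51 (adjusted p = 0.024), and doxycycline lay 0.34 above control cells (adjusted p = 0.25). Leaving out doxycycline replicate 1, doxycycline lay 0.80 above control cells and passed (adjusted p = 0.014). The fall against doxycycline cells passed in 6 of 9 fits with an array left out. It did not pass without doxycycline replicate 3 (adjusted p = 0.0522), recovery replicate 1 (0.0817) or recovery replicate 2 (0.0889), nor without a detection filter (0.0517) or with the compared groups alone (0.0599).

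FZD7, the receptor of this branch best known from stem cells and tumours, had log2 levels of 9.46, 9.51 and 9.67 in recovery cells (ILMN_1804351), 9.83, 10.75 and 10.09 in doxycycline cells and 9.87, 9.52 and 9.48 in control cells. All recovery arrays lay below all doxycycline arrays, and the control arrays overlapped both groups. FZD7 fell by 0.68 ± 0.21 in recovery against doxycycline cells (adjusted p = 0.042). Its other probe (ILMN_2108823) had the same direction, at -0.36, but did not pass (adjusted p = 0.089 over all kept probes). The fall was 0.41 and no longer passed when doxycycline replicate 2 was left out (adjusted p = 0.061). Recovery and control cells differed by -0.07 ± 0.21, and doxycycline and control cells by 0.60 ± 0.21 (adjusted p = 0.84 and 0.13). The last difference was 0.34 without doxycycline replicate 2 (adjusted p = 0.25) and 0.80 without doxycycline replicate 1, where it passed (adjusted p = 0.019). The fall against doxycycline cells passed in 1 of 9 fits with an array left out.

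FZD1 (ILMN_2222065) passed in no comparison. Its log2 level averaged 8.16 ± 0.08 in recovery, 8.41 ± 0.32 in doxycycline and 8.13 ± 0.16 in control cells (SD, n = 3 each). The differences were 0.03 for recovery against control, -0.25 for recovery against doxycycline and 0.28 for doxycycline against control, with an SE of 0.16 each. Without doxycycline replicate 2 the last 2 were -0.07 and 0.10. The other FZD1 probe (ILMN_1696546), on all arrays, gave 0.11 for recovery against control, -0.17 for recovery against doxycycline and 0.28 for doxycycline against control.

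FZD6, known in mice for its part in the orientation of hairs, and FZD8, a close relative of FZD5, also passed in no comparison. FZD6 (ILMN_1659297) had log2 levels of 9.09, 9.00 and 8.78 in recovery cells, 8.30, 8.88 and 9.01 in doxycycline cells and 8.70, 8.72 and 8.74 in control cells. Its recovery arrays lay just above the control arrays, by 0.24 ± 0.17 on average (adjusted p = 0.39), and the doxycycline arrays reached further down and nearly as high. FZD8 (ILMN_1729368) had levels of 5.83, 5.96 and 5.76 in recovery cells, 6.15, 5.93 and 6.17 in doxycycline cells and 6.31, 6.15 and 6.05 in control cells. Recovery arrays lay below control arrays, by -0.32 ± 0.12 (adjusted p = 0.099, interval -0.59 to -0.05). That difference passed without doxycycline replicate 2, at -0.32 (adjusted p = 0.035).

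Of the 3 ligands, WNT10B is known to drive osteoblast formation and bone mass in mice through beta-catenin. Its deposited signal (ILMN_1712283) was 633, 568 and 433 on the recovery arrays, 718, 1037 and 911 on the doxycycline arrays and 1022, 523 and 609 on the control arrays. The normalised log2 levels were 9.29, 9.24 and 9.28 in recovery cells, 9.56, 10.13 and 9.57 in doxycycline cells and 9.39, 9.30 and 9.36 in control cells. The doxycycline arrays lay above all others, and the recovery arrays lay just below the control arrays. WNT10B fell by 0.48 ± 0.15 in recovery against doxycycline cells (adjusted p = 0.047). Without doxycycline replicate 2 the fall was 0.29 (adjusted p = 0.0503), so this call was lost. The differences of -0.08 ± 0.15 in recovery against control and 0.40 ± 0.15 in doxycycline against control did not pass (adjusted p = 0.77 and 0.15). The last was 0.21 without doxycycline replicate 2 (adjusted p = 0.28) and 0.50 without doxycycline replicate 1, where it passed (adjusted p = 0.044). The fall against doxycycline cells passed in 1 of 9 fits with an array left out.

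WNT5A, the best known ligand of the routes that do not use beta-catenin, had log2 levels of 6.96, 6.67 and 7.06 in recovery cells (ILMN_1800317), 7.05, 7.71 and 7.22 in doxycycline cells and 7.42, 7.22 and 7.50 in control cells. All recovery arrays lay below all control arrays, by -0.48 ± 0.18 on average. This did not pass with all 9 arrays (adjusted p = 0.078, interval -0.87 to -0.10) and passed without doxycycline replicate 2, at -0.49 (adjusted p = 0.013), and without doxycycline replicate 1, at -0.48 (adjusted p = 0.044). Recovery lay -0.43 ± 0.18 from doxycycline cells (adjusted p = 0.11), at -0.24 without doxycycline replicate 2 (adjusted p = 0.25) and at -0.57 without doxycycline replicate 1, where it passed (adjusted p = 0.034). WNT5B, its close paralog, averaged 5.67 ± 0.13 in recovery, 5.80 ± 0.43 in doxycycline and 5.89 ± 0.43 in control cells (ILMN_1772824, SD, n = 3 each). The groups overlapped in every comparison, and the smallest adjusted p was 0.57, for recovery against control at -0.22 ± 0.24.

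Counted together, 2 of the 10 genes rose and 0 fell in recovery against control cells, where 10.2% and 9.06% of all genes did. Against doxycycline cells 1 rose and 3 fell in recovery, beside 8.71% and 9.69% of all genes. In doxycycline against control cells 0 of 10 passed by limma, 4 had an unadjusted p under 0.05, as did 23.6% of all genes, and 1.71% of all genes were called higher and 0.359% lower. The F-test over the 3 groups called 3 of the 10 (ROR2, FZD4 and FZD2), beside 22.4% of all genes. The median log2 difference of the 10 genes was -0.08 in recovery against control, -0.24 in recovery against doxycycline and 0.34 in doxycycline against control cells, beside -0.0064, -0.011 and 0.015 over all genes. Without doxycycline replicate 2 the medians were -0.08, -0.155 and 0.121, beside -0.0084, -0.014 and 0.016. Of the 10 genes, 3 had all recovery arrays above all control arrays and 3 had them all below, as did 23.6% and 23.5% of all genes. Recovery and doxycycline arrays did not overlap for 1 gene in the upward and 3 in the downward direction, beside 17.3% and 18.1% of all genes. All doxycycline arrays lay above all control arrays for 3 of the 10 and below for 0, beside 15.3% and 11.1%. Any pair of these comparisons shares arrays, so they are not independent of each other. In RNA from whole cultures, fewer cells that express a gene and less RNA per cell cannot be told apart.

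When doxycycline replicate 2 was left out, the counts were 4 in recovery against control (ROR2 and FZD4 higher, WNT5A and FZD8 lower, beside 31.5% of all genes called), 3 in recovery against doxycycline (ROR2 and FZD4 higher, FZD2 lower, beside 22% of all genes) and 0 in doxycycline against control (1.97% of all genes). On that array 9 of the 10 genes lay above the mean of the other doxycycline arrays, while the median gap over all genes was -0.04. The gap was 0.96 for FZD4, 0.79 for FZD7, 0.74 for FZD2 and 0.73 for WNT5B, and only FZD8, at -0.23, lay lower. Without doxycycline replicate 1, 5 genes (FZD2, FZD4, FZD7, WNT10B and ROR2) were called higher in doxycycline than in control cells, where 21.5% of all genes were called in either direction.

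**Figure D2:**
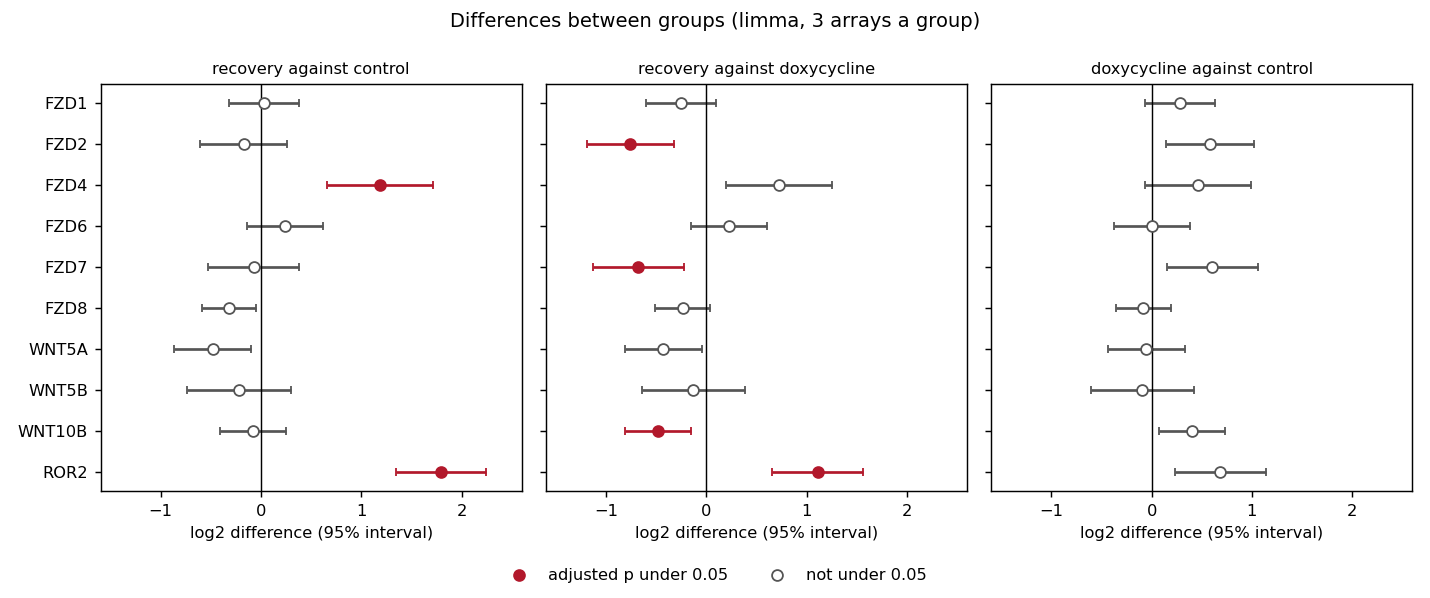
Log2 difference between group means (horizontal axis; points, with 95% limma intervals as bars) of the 10 genes for recovery against control, recovery against doxycycline and doxycycline against control; filled points have an adjusted p under 0.05. ROR2 is 1.79 higher in recovery than in control cells and 1.11 higher than in doxycycline cells, and no point is filled in the panel of doxycycline against control.

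**Figure D3:**
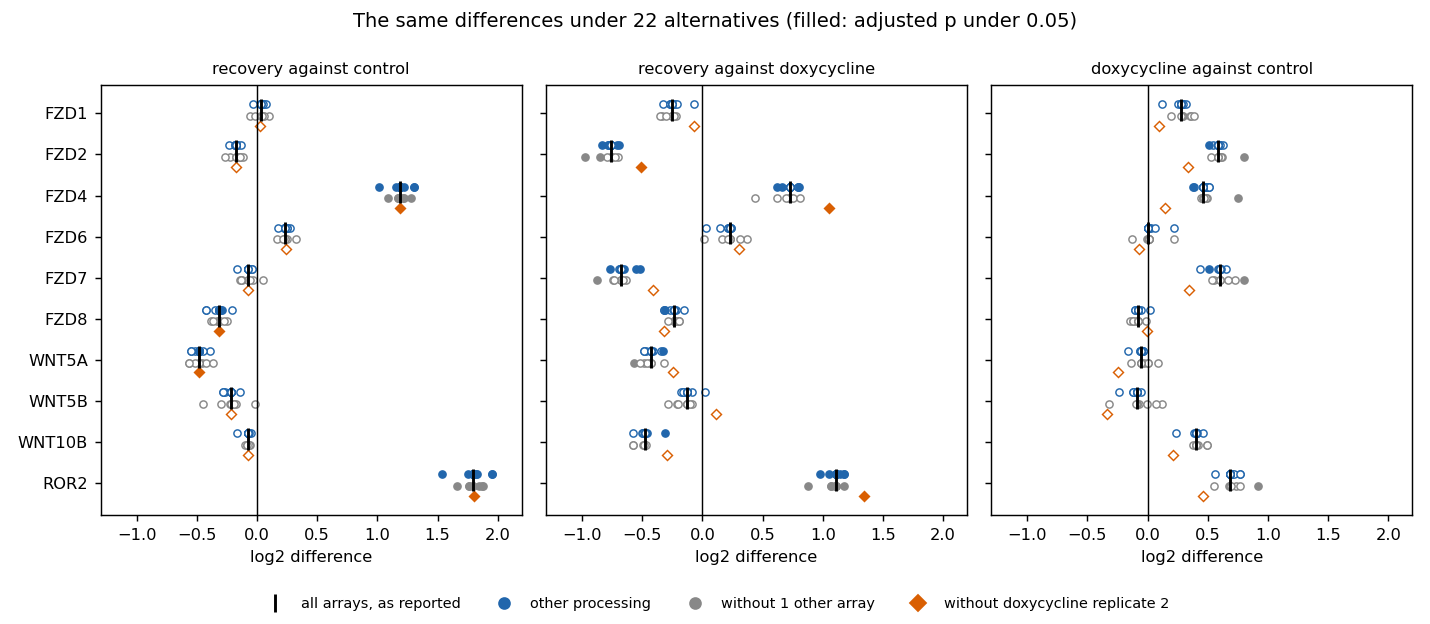
The same log2 differences (horizontal axis) with all arrays (black bars) and under 22 alternatives: other processing in blue, each left-out array in grey and doxycycline replicate 2 left out in orange; filled symbols have an adjusted p under 0.05. ROR2 stays between 1.54 and 1.95 in recovery against control and FZD4 between 1.01 and 1.30, filled throughout, while FZD7 and WNT10B are filled in 8 and 6 of the 22 for recovery against doxycycline.

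The genes whose pattern over the 9 arrays was nearest were found by the root mean square difference of log2 levels, each gene centred on its own mean. For ROR2 these were TMEM62 at 0.16, PIWIL4 at 0.17 and BTN3A1 at 0.17, where the median gene lay at 0.81 and ROR2 itself varied by 0.78 about its mean. For FZD4 they were CYP4V2 at 0.13, LAT at 0.15 and DUSP19 at 0.15, with a median of 0.62. For FZD2 they were GALNT16 at 0.065, CCDC80 at 0.067 and APLP1 at 0.071, with a median of 0.45. These distances are descriptions over 9 arrays that share their groups and, for the doxycycline group, the array that stands apart.

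The rest of the receptor family was then read from fixed lists. Over all genes, 10.2% rose and 9.06% fell in recovery against control cells, and 8.71% and 9.69% against doxycycline cells. Without doxycycline replicate 2, 31.5% and 22% of all genes were called in these comparisons, in either direction. All 10 Frizzled genes were tested, 9 of them detected on 9 arrays and FZD10 on 3. In recovery against doxycycline cells FZD2, FZD5 and FZD7 fell and none rose, with a list median of -0.36. FZD5, a receptor that signals through beta-catenin, fell by 0.71 ± 0.16 (adjusted p = 0.012) and by 0.53 without doxycycline replicate 2 (adjusted p = 0.013). In recovery against control cells only FZD4 passed. With doxycycline replicate 2 left out, FZD4 rose and FZD2 and FZD5 fell against doxycycline cells, and FZD4 rose and FZD8 fell against control cells.

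Of 19 Wnt ligand genes on the array, 7 were tested, and those not tested were detected on at most 1 array each. In recovery against doxycycline cells WNT1, WNT10B and WNT11 fell and none rose, where 9.69% and 8.71% of all genes did. WNT1, a founding ligand of the beta-catenin route, had log2 levels of 6.84, 6.40 and 6.90 in recovery, 7.28, 7.89 and 7.64 in doxycycline and 7.31, 7.20 and 7.33 in control cells. It fell by 0.89 ± 0.17 against doxycycline and by 0.56 ± 0.17 against control cells (adjusted p = 0.0051 and 0.043). WNT11, a ligand of the polarity route, fell by 0.68 ± 0.14 in recovery against doxycycline cells (adjusted p = 0.0079). Without doxycycline replicate 2, WNT1 and WNT11 were called lower in recovery against doxycycline cells, and WNT1 and WNT5A in recovery against control cells.

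Of 12 co-receptor genes, 10 were tested. In recovery against doxycycline cells, where 8.71% of all genes rose and 9.69% fell, ROR2 rose and 4 fell: LRP4, LRP5, ROR1 and PTK7. LRP5, the co-receptor of the beta-catenin route known for its effect on human bone mass, fell by 0.83 ± 0.18 (adjusted p = 0.010). ROR1, the paralog of ROR2, fell by 0.75 ± 0.21 (adjusted p = 0.030). The same 5 genes were called without doxycycline replicate 2. In recovery against control cells ROR2 and ADGRA2 rose and TSPAN12 fell, where 10.2% and 9.06% of all genes did. ADGRA2, which works with RECK to select WNT7 ligands, rose by 0.80 ± 0.18 (adjusted p = 0.0096), and TSPAN12, a partner of FZD4 in norrin signalling, fell by 0.48 ± 0.11 (adjusted p = 0.013). Without doxycycline replicate 2, LRP4 and LRP6 were also called lower in recovery against control.

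Among the genes that make, release or remove ligands, 6 of 10 were tested. SULF1, a sulfatase that trims heparan sulfate outside the cell, had log2 levels of 9.37, 9.42 and 9.20 in recovery, 7.46, 8.05 and 7.72 in doxycycline and 7.15, 7.17 and 6.97 in control cells. It rose by 2.23 ± 0.15 against control and by 1.59 ± 0.15 against doxycycline cells (adjusted p = 1.2e-06 and 4.4e-05). The glypicans GPC4 and GPC6, cell-surface carriers of heparan sulfate, fell by 0.95 ± 0.18 and 0.71 ± 0.13 in recovery against doxycycline cells (adjusted p = 0.0041 and 0.0034). NOTUM, an enzyme that removes the lipid from Wnts, fell by 0.79 ± 0.17 in the same comparison (adjusted p = 0.0078). In recovery against control cells SULF1 and TRABD2A rose and GPC6 fell, where 10.2% and 9.06% of all genes did. The second GPC6 probe, however, stayed at -0.06 there.

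Of the 6 secreted antagonists tested among 14, SOST and DKK1, both inhibitors that bind LRP5 and LRP6, fell in recovery and none rose. Of all genes, 9.06% fell and 10.2% rose against control cells, and 9.69% fell and 8.71% rose against doxycycline cells. SOST had log2 levels of 5.64, 5.28 and 5.49 in recovery, 7.38, 7.72 and 7.21 in doxycycline and 7.80, 7.72 and 7.61 in control cells. It fell by 2.24 ± 0.15 against control cells and fell by 1.96 ± 0.15 against doxycycline cells (adjusted p = 1.0e-06 and 8.8e-06). DKK1 fell by 1.44 ± 0.16 against control cells and fell by 1.14 ± 0.16 against doxycycline cells (adjusted p = 7.5e-05 and 0.00061). Its dimmer probe fell by 0.96 against control cells (adjusted p = 0.0017 over all kept probes) and lay at -0.51 against doxycycline cells, which did not pass (adjusted p = 0.053).

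Further inside the cell, genes of the feedback and polarity lists were called in both directions. Of 11 feedback targets of beta-catenin tested, 3 rose and 2 fell in recovery against control cells, where 10.2% and 9.06% of all genes did. CCND1, the cell-cycle gene for cyclin D1, rose by 3.55 ± 0.21, detected on 3 recovery, 3 doxycycline and 1 of the control arrays, so that its control mean rests mostly on signals not above background. On the probes used, it was the list's only gene to rise in doxycycline against control cells (1.32 ± 0.21, adjusted p = 0.0079). NKD1 joined it there without doxycycline replicate 2. NOTUM did not pass there on its brighter probe, at 0.57 (adjusted p = 0.095). Its other probe did, at 0.65 (adjusted p = 0.047 over all kept probes). The transcription factor gene SP5 was detected on 3 recovery, 1 doxycycline and 0 control arrays and was at least 1.51-fold higher in recovery than in control cells (adjusted p = 0.00086). NKD1, an inhibitor of Dishevelled, was detected on 3 recovery, 2 doxycycline and 0 control arrays and was at least 1.18-fold higher (adjusted p = 0.042). These bounds set the recovery mean against the lowest detected signal of the control arrays. APCDD1, a membrane inhibitor of Wnt signalling, fell by 0.52 ± 0.14 against control cells (adjusted p = 0.023), and the other fall was DKK1. AXIN2, the feedback gene for a second axin, fell by 0.43 ± 0.12 against doxycycline cells (adjusted p = 0.027), and its difference of -0.36 ± 0.12 from control cells did not pass (adjusted p = 0.051).

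Of 23 polarity and calcium genes tested, 4 rose and 2 fell in recovery against control cells, where 10.2% and 9.06% of all genes did. PRKCA, a calcium-dependent kinase, fell by 1.36 ± 0.12 and PRICKLE1, a polarity protein, by 0.61 ± 0.12 (adjusted p = 1.1e-05 and 0.0040). PRICKLE3, detected on 3 recovery, 2 doxycycline and 2 control arrays, rose by 0.74 ± 0.16 (adjusted p = 0.0066). CELSR3, DAAM2 and MAPK10 rose by 0.78 ± 0.18, 0.49 ± 0.13 and 0.43 ± 0.13 (adjusted p = 0.011, 0.023 and 0.040). DAAM2, a formin that binds Dishevelled, was the list's only gene to rise in doxycycline against control cells, by 0.60 ± 0.13 (adjusted p = 0.043), and it did not pass without doxycycline replicate 2 (0.54, adjusted p = 0.064). Of 12 Dishevelled and beta-catenin core genes, 1 rose and 0 fell in recovery against control cells. Of 5 genes for receptor turnover and R-spondins, 0 passed there. In the same comparison with doxycycline replicate 2 left out, AXIN2, GSK3B and GPC4 were also called lower and USP8 higher, beside 31.5% of all genes called.

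**Figure D4:**
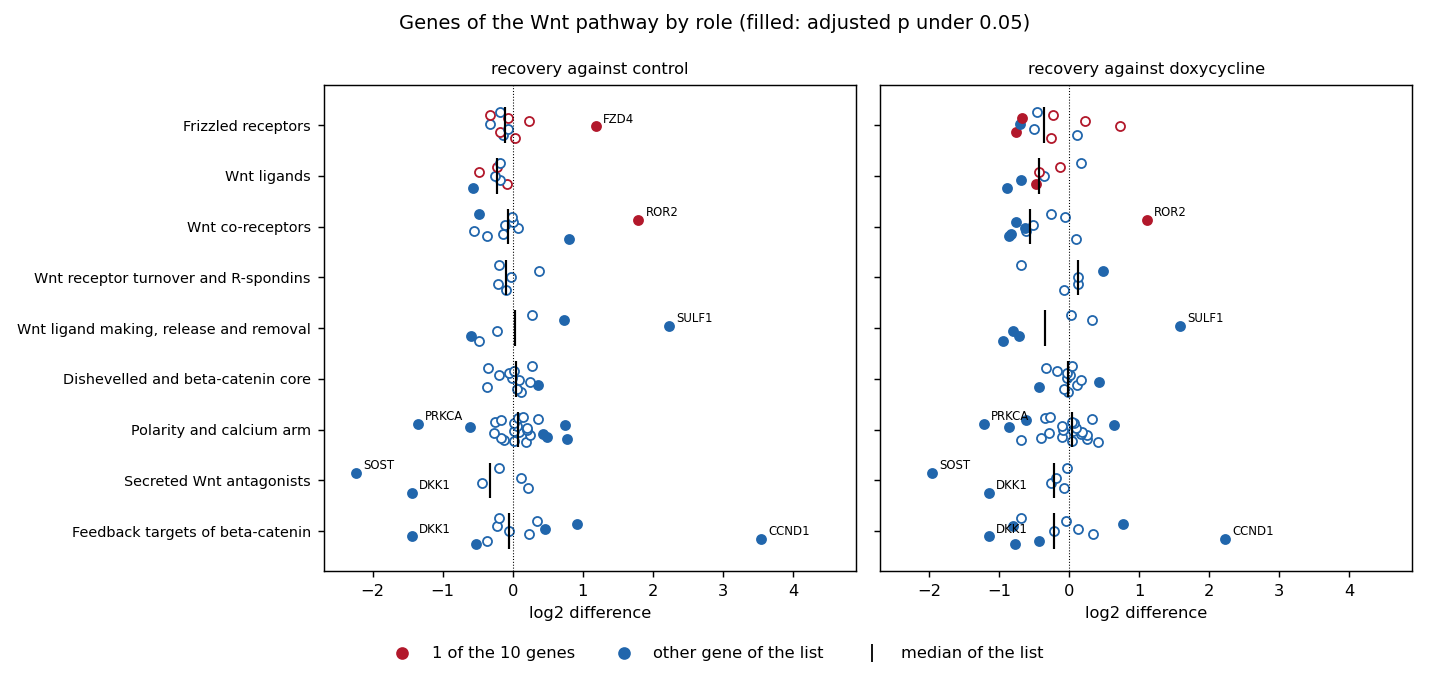
Log2 difference (horizontal axis) of every tested gene of 9 Wnt pathway lists (rows) for recovery against control and recovery against doxycycline; red marks the 10 genes, blue the other genes of a list, filled symbols an adjusted p under 0.05 and black bars the list median. Called genes with a difference over 1 are named: FZD4, ROR2, SULF1 and CCND1 to the right and SOST, DKK1 and PRKCA to the left.

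Markers of the line and of other cells were read on the same arrays. Of 15 osteoblast genes on the array, 11 were tested and detected on all arrays, while SPP1, BGLAP, DMP1 and PHEX did not pass the detection filter. The summed osteoblast level, on the linear scale, was 56530 to 63070 in recovery, 54860 to 71660 in doxycycline and 50600 to 54500 in control cells. In recovery against control cells 1 of the 11 rose, SPARC at 0.90 (adjusted p = 0.0023), and 1 fell, SOST at -2.24 (adjusted p = 1.0e-06). The other 9 were not called there, and the list median was 0.03. Of all genes, 10.2% rose and 9.06% fell there. COL1A1 fell by 0.60 in recovery against doxycycline cells (adjusted p = 0.047). Of 7 haematopoietic genes, CD68 and CD14 were tested, PTPRC, CD3E, HBB and LYZ were detected on 0 arrays and CD74 on 2. The summed level of CD68 and CD14 was 3356 to 3975 in recovery, 1146 to 1462 in doxycycline and 683 to 772 in control cells. CD68 rose by 2.49 in recovery against control cells on its brighter kept probe and by 1.02 on the other kept probe. The array holds 3 CD68 probes, and the remaining probe did not pass the detection filter. CD14 differed by 0.25 there, which did not pass (adjusted p = 0.38). The muscle and endothelial sum was 969.9 to 1158 in recovery, 1817 to 2100.0 in doxycycline and 1945 to 2127 in control cells, from VWF, CKM and ACTC1, with PECAM1, CDH5, KDR, MYOD1 and DES detected on 0 arrays. In recovery against control cells CKM fell by 1.02 and ACTC1 by 1.19 (adjusted p = 0.00026 and 0.00032). VWF lay at 0.12 and did not pass (adjusted p = 0.64). The epithelial sum was 1333 to 1429 in recovery, 1555 to 2461 in doxycycline and 1445 to 1578 in control cells, from EPCAM and CLDN4, and CDH1, KRT5, KRT14 and KRT19 were detected on 0 arrays. CLDN4, detected on 2 recovery, 0 doxycycline and 3 control arrays, was at least 1.30-fold lower in doxycycline than in control cells (adjusted p = 0.0495). That bound sets the control mean against the lowest detected signal of the doxycycline arrays. EPCAM lay at 0.37 there (adjusted p = 0.19). The adipocyte and cartilage sum was 1091 to 1157 in recovery, 1022 to 1172 in doxycycline and 1085 to 1247 in control cells. The part of these genes in the differences of the receptors and ligands was not tested.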

How the data were processed

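The authors deposited, for each of 47322 probes on 9 bead arrays, an averaged intensity that was not normalised between arrays, and per the file headers a detection p-value. Values below 0 on 29.2% to 32.5% of probes show that a background had been subtracted, with software not named in the labels or headers. A second table deposited by the authors holds normalised intensity values. The column codes of the first table were assigned by rank identity with the sample names of the second, where the matching column had a rank correlation of 1 and no other exceeded 0.962. No slide or scan date was used, and 0 columns were left out.

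Gene names came from the probe annotation, in which 30112 probes had 1 symbol, 8 several and 17202 none. A RefSeq gene was found for 30073, which changed 0 symbols. Signals were corrected with the normexp model of limma 3.58.1 (R 4.3.3) from the detection p-values, offset 16, put on the log2 scale and quantile normalised. A probe was kept if its detection p was under 0.05 on 3 or more arrays (22039 probes, of which 16373 had 1 gene), and the brightest kept probe stood for each of 12245 genes. Group means were then fitted with limma's lmFit and eBayes on all 9 arrays, with 6 residual and 5.51 prior degrees of freedom, and Benjamini-Hochberg adjustment over all genes. A gene was called, and is said to have risen or fallen, at adjusted p under 0.05. The script was tested on simulated data. The number of arrays limits the precision.

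The 10 genes and the pathway and marker lists were chosen with earlier results of these data known. Every probe of the 10 genes is described. From each list up to 4 called genes with the smallest F-test p are given, and the 3 nearest genes for each of the 10 that the F-test called. The other called list genes were named after their values were seen. Alternatives were cyclic loess, median scaling, another offset, uncorrected signals, other detection filters and probe rules, the authors' processed values, another prior, array weights, a replicate block, the compared groups alone, a minimum difference and leaving out each array. The counts of the pathway lists without doxycycline replicate 2 were added after seeing the data. Promoter sequences are from RefSeq, and tables and figures were made with Python 3.11.15, pandas 2.3.3 and matplotlib 3.10.9.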

Additional observations from a re-analysis of the deposited data

How the results depend on the processing

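Under 22 alternatives ROR2 kept its rise against control and doxycycline cells in all 22, and FZD4 its rise against control cells in all 22. The falls in recovery against doxycycline cells passed in 17 (FZD2), 8 (FZD7) and 6 (WNT10B) of the 22, and FZD4 rose there in 6. The count of the 10 genes in recovery against doxycycline cells, 4, became 2 without background correction, with cyclic loess and with the authors' processed values, and 1 without a detection filter, with the compared groups alone and with a minimum log2 difference of 1. Over all genes these settings called 2008, 2180 and 2008 of 12245, then 2110 of 20046, and 1400 and 366 of 12245. In recovery against control cells the count of 2 became 4 with the compared groups alone, which called 3968 of 12245 genes there. The F-test count of 3 became 5 with an offset of 50 and with a trended robust prior, which called 3112 and 3083 of 12245 genes. Array weights, estimated gene by gene because the default estimate did not converge (a choice made after seeing the data), gave 4 in doxycycline against control, 4 in recovery against control, 7 in recovery against doxycycline and 7 by the F-test. They called 3210, 4361, 4918 and 6535 of 12245 genes in the same order. Leaving out single arrays gave 0 to 5 in doxycycline against control (5 without doxycycline replicate 1, otherwise 0), 2 to 4 in recovery against control (4 without doxycycline replicate 2), 1 to 5 in recovery against doxycycline (1 without doxycycline replicate 3, recovery replicate 1 or recovery replicate 2) and 1 to 6 by the F-test (1 without recovery replicate 2, 6 without doxycycline replicate 1). Without doxycycline replicate 1, 21.5% of all genes were called in doxycycline against control. Without doxycycline replicate 2, 31.5% were called in recovery against control. Ranges of the calls over all genes are given below. The cause of these moves was not tested.

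Signs turned for differences that were not called. They were FZD1 in recovery against control (-0.0321 with median scaling), FZD8 in doxycycline against control (0.0212 with array weights) and WNT5B in recovery against doxycycline (0.0223 with array weights). With single arrays left out, FZD1 (-0.0556 to 0.101) and FZD7 (-0.143 to 0.0497) in recovery against control, FZD6 (-0.13 to 0.22), WNT5A (-0.246 to 0.0825) and WNT5B (-0.34 to 0.12) in doxycycline against control and WNT5B (-0.29 to 0.12) in recovery against doxycycline turned sign. The F-test has no value with the compared groups alone or with a minimum difference.

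Over all genes, the 254 calls in doxycycline against control cells became 76 to 2614 with 1 array left out, 3210 with array weights, 88 with the compared groups alone, 154 without a detection filter and 82 with a minimum log2 difference of 1. The 2353 calls in recovery against control became 4361 with array weights, 3968 with the compared groups alone, 473 with a minimum difference and 1351 to 3819 with 1 array left out. The 2254 in recovery against doxycycline became 4918, 1400, 366 and 1048 to 3279 in the same order, and 1482 with median scaling. The 2747 genes called by the F-test became 6535 with array weights and 1285 to 4923 with 1 array left out.

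With group means removed, arrays with the same replicate number correlated from -0.107 to 0.101, and 3 of 9 arrays correlated best with their own number. Between recovery and control, same-number arrays correlated at 0.101, 0.0501 and 0.0505, and different-number arrays from -0.0749 to 0.022. Same-number doxycycline arrays correlated negatively with both other groups, from -0.107 to -0.0237. Whether the numbers pair the samples cannot be told from these values. With the replicate number as a block, the counts of the followed genes were 0 in doxycycline against control, 2 in recovery against control and 3 in recovery against doxycycline. By the F-test the count was 2. Over all genes this setting called 173, 2041, 1857 and, by the F-test, 2268 of 12245 in the same order.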
